A study of Ovis aries with 6 samples.

Results

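Integrin and laminin subunit genes were taken from the deposited gene table as every row whose name began with ITGA, ITGB, LAMA, LAMB or LAMC followed by a digit, together with ITGAV, ITGAL, ITGAM, ITGAX, ITGAD and ITGAE. The rule found 39 of 26425 rows. Of these, 36 code for subunits: 17 integrin alpha, 7 integrin beta, 5 laminin alpha, 4 laminin beta and 3 laminin gamma chains. The other 3 (ITGB1BP1, ITGB1BP2 and ITGB3BP) code for proteins named after an integrin tail they bind and are described apart. ITGB3 and ITGA2B were not analysed here.

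The samples were sheep cells of the adipose stromal vascular fraction, the mixed cells left when mature fat cells are removed from fat tissue, and their labels give the cell type as adipocyte. In 3 samples MEOX2, a homeobox transcription factor of mesoderm, was overexpressed, and 3 samples labelled NC were the control group; column names of both groups carry the prefix pHBLV. The labels give no breed, age, passage or donor, and do not say whether the 3 samples of a group came from separate animals or cultures, so p-values measure only the spread between these samples. The values were FPKM, fragments scaled to gene length and library size, which allows levels to be compared between genes.

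Integrins are cell surface receptors made of 1 alpha and 1 beta subunit, which are joined before they reach the membrane and bind matrix proteins or other cells outside and the actin cytoskeleton inside. The alpha subunit largely sets the ligand. Laminins are secreted trimers of 1 alpha, 1 beta and 1 gamma chain and form the sheet of the basement membrane, the layer that surrounds each mature fat cell and is absent around most fibroblasts. Fat cell precursors are known to exchange a fibronectin-rich matrix for a laminin-rich one as they differentiate.

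MEOX2 itself was at 153, 108 and 138 FPKM in the overexpressing samples and at 10.8, 10.1 and 9.03 FPKM in NC. The groups were far apart, with a log2 change of 3.60 (SE 0.13) and an adjusted p of 1.15e-05 by limma, while an exact two-sided permutation test gave p = 0.1, the smallest that 3 against 3 samples allow. Whole reads worked out from the FPKM values totalled 11772772 to 12230863 per library. On the second principal component, with 22.2% of the variance, NC sample 3 had the highest score. Of 10 stromal progenitor markers, 9 passed the filter, an average level of 1 FPKM or more. Mature adipocyte markers were present too, with a summed level of 129 to 151 FPKM with MEOX2 and 300.5 to 362 FPKM in NC. Limma called 5 of the 8 tested lower at an adjusted p of 0.05, where 1.16% of all genes were called lower. In bulk RNA, fewer cells of a type and less RNA per cell cannot be told apart.

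Of the 39 rows, 23 passed the filter and were tested. By limma, ITGA9 and ITGA4, alpha subunits of 1 subfamily, rose with MEOX2, and no member was called lower. The test was run on log2(FPKM + 1) at an adjusted p of 0.05, which called 2.67% of all 13121 tested genes, 1.51% higher and 1.16% lower. The other 21 members were not called. Limma voom on recovered reads called 6 members, against 4.17% of all genes, and added ITGA11 as higher and LAMA2, LAMA5 and LAMC1 as lower. Without the filter limma called 1 member, ITGA9, against 1.04% of all genes. At an unadjusted p under 0.05 there were 8 of 23 members, against 13.4% of all genes. MEOX2 and NC values lay fully apart for 10 of the 23 members, 6 higher and 4 lower with MEOX2, against 18.9% of all genes in either direction (9.6% higher and 9.33% lower). The median log2 change of the 23 was 0.02, beside -0.0027 over all tested genes.

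**Figure D1:**
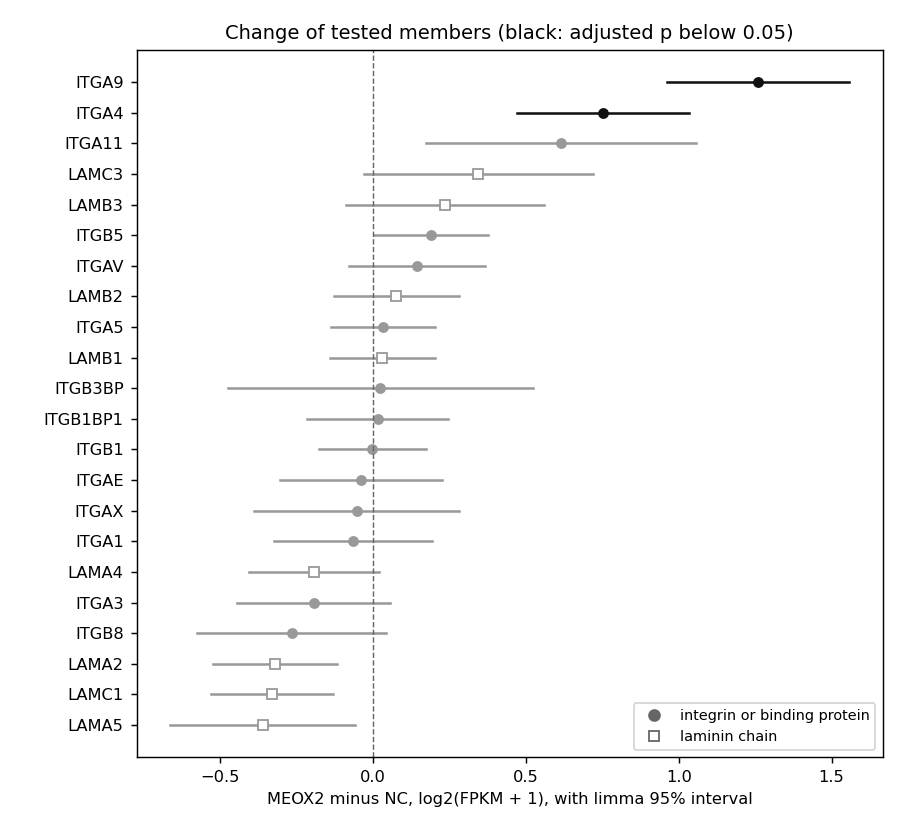
Difference between MEOX2 and NC on the log2(FPKM + 1) scale (horizontal axis) for 22 tested members, with the limma 95% interval as a line; filled circles are integrins and binding proteins, open squares laminin chains, and black marks an adjusted p below 0.05. ITGA9 at 1.26 and ITGA4 at 0.75 head the plot, and LAMA5, LAMC1 and LAMA2 close it at -0.36, -0.33 and -0.32.

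ITGA9 (ENSOARG00000000498, chromosome 19, 10846322 to 11213039, plus strand; the genome build is not given in the sources used here) codes for the alpha9 subunit, which pairs with beta1 and binds tenascin-C, osteopontin and VCAM1. Its levels were 3.95, 3.59 and 3.90 FPKM in the MEOX2 samples and 0.973, 0.932 and 1.13 FPKM in NC. All 3 MEOX2 samples lay above all 3 NC samples, with little spread inside each group. The mean rose 3.77-fold, from 1.01 ± 0.106 to 3.81 ± 0.196 FPKM (SD, n = 3 each). On the log2(FPKM + 1) scale, which understates the change of low genes, the difference was 1.26 (SE 0.13, limma adjusted p = 0.00245). The gene held 84 to 352 reads per library. ITGA9 passed the threshold whichever library was dropped (limma adjusted p 0.00666 to 0.0176), and limma voom on the recovered reads gave a log2 change of 1.90 (SE 0.14, adjusted p = 2.08e-08).

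ITGA4 (ENSOARG00000016867, chromosome 2, 127163497 to 127254486, minus strand) codes for alpha4, the closest relative of alpha9, which pairs with beta1 or beta7 and binds VCAM1 and a segment of fibronectin. It was at 5.52, 5.72 and 4.89 FPKM with MEOX2 and at 2.44, 2.76 and 3.18 FPKM in NC. The groups did not overlap, and the means stood 1.92-fold apart, at 5.38 ± 0.430 and 2.80 ± 0.371 FPKM (SD, n = 3 each). The log2 change was 0.75 (SE 0.12, limma adjusted p = 0.0173), from 91 to 221 reads per library. Among the 6 fits that dropped a library, the call held only in the one without NC sample 3 (limma adjusted p = 0.0219). It was lost without any other single library (up to 0.0776) and without a filter on low genes (0.0536).

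Together, ITGA4 and ITGA9 summed to 9.47, 9.31 and 8.80 FPKM in MEOX2 samples and 3.41, 3.69 and 4.31 FPKM in NC. They made up 2.61% ± 0.105 of the summed alpha subunit FPKM with MEOX2 and 1.14% ± 0.1003 in NC (SD, n = 3 each). Both remained minor beside the alpha subunits described next. ITGA4 is also an integrin of white blood cells. Of leukocyte markers, PTPRC had at most 2 reads in any library and MPEG1 had 0. Limma called 0 of 6 tested leukocyte markers. Limma voom called 1, against 4.17% of all genes, and 1 had an unadjusted limma p under 0.05, against 13.4% of all genes. Their summed level over 13 rows, nearly all of it CD14 and LCP1, was 139 to 156 FPKM with MEOX2 and 134 to 138 FPKM in NC, without overlap, and their part in the rise of ITGA4 was not tested. ITGA9 is known from smooth muscle. Of 7 tested smooth muscle and pericyte markers limma called CNN1 and CSPG4 higher, where 1.51% of all genes were called higher. The log2 change was positive for 5 of the 7 and negative for 2. The groups did not overlap for 3 higher and 1 lower of the 7, against 9.6% and 9.33% of all genes. The summed level of the 9 smooth muscle and pericyte rows was 723 to 769 FPKM with MEOX2 and 626 to 632 FPKM in NC. TAGLN, at an average of 459 FPKM, was the highest of these rows. The part of such cells in the rise of ITGA9 was not tested.

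**Figure D2:**
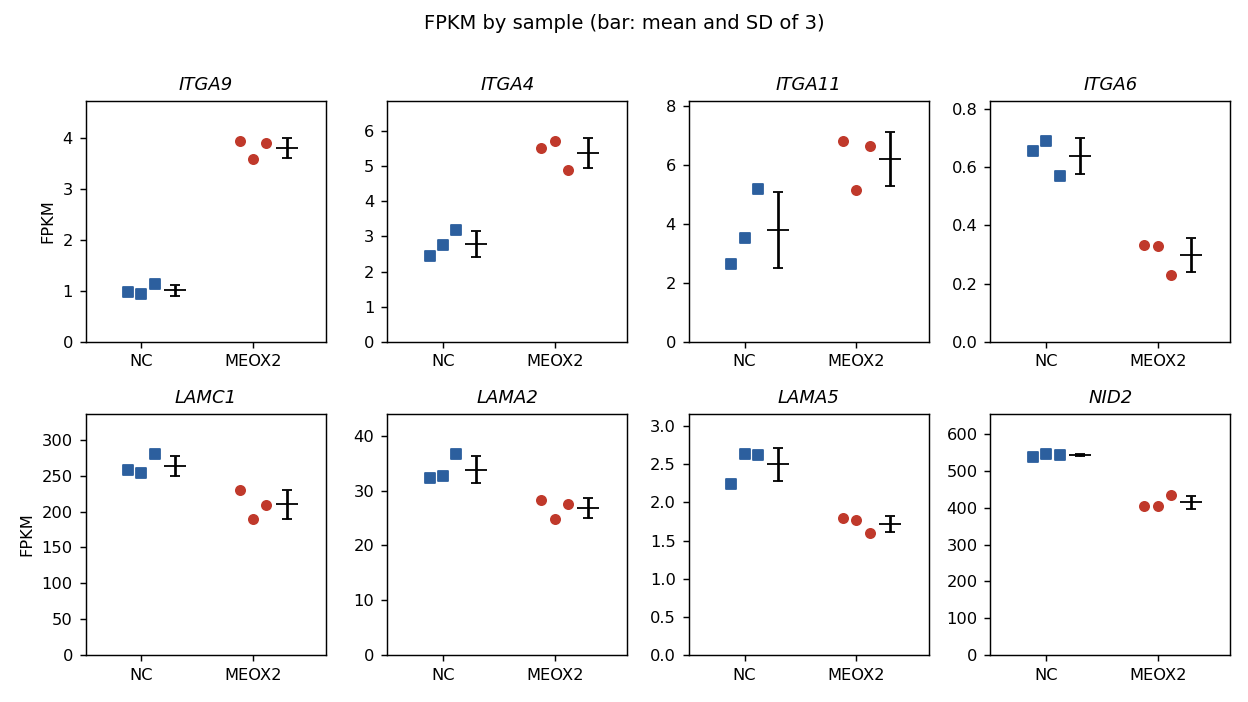
FPKM (vertical axis from 0, a separate scale in each panel) of ITGA9, ITGA4, ITGA11, ITGA6, LAMC1, LAMA2, LAMA5 and the laminin linker NID2 in 3 NC samples (blue squares) and 3 MEOX2 samples (red circles), with the mean and SD beside each group. Groups overlap only for ITGA11, where NC sample 3 at 5.18 FPKM reaches MEOX2 sample 2 at 5.14 FPKM.

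The alpha subunits that bind the RGD sequence of fibronectin and vitronectin were by far the most abundant. ITGA5, the main fibronectin receptor subunit (chromosome 3, 132008455 to 132021989), was at 218, 212 and 224 FPKM with MEOX2 and at 203, 230.5 and 207 FPKM in NC. ITGAV, the partner of several beta subunits (chromosome 2, 121567325 to 121672421), was at 105, 105 and 97.5 FPKM and at 91.0, 82.5 and 106 FPKM. Groups overlapped for both genes. The log2 change was 0.03 for ITGA5 (95% interval -0.14 to 0.20) and 0.14 for ITGAV (-0.08 to 0.37), with limma adjusted p values of 0.913 and 0.605. Over the RGD class, which includes ITGA8 at an average of 0.654 FPKM, the summed share of alpha subunit FPKM was 91.1% ± 0.138 with MEOX2 and 92.3% ± 0.754 in NC.

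Collagen-binding alpha subunits were low. ITGA11, the collagen receptor subunit of fibroblasts (chromosome 7, 14898977 to 15033353), was at 6.81, 5.14 and 6.63 FPKM with MEOX2 and at 2.64, 3.52 and 5.18 FPKM in NC. NC sample 3 was the highest of its group and touched the lowest MEOX2 sample. The log2 change of 0.62 (SE 0.19) was not called by limma (adjusted p = 0.175). Limma voom called ITGA11 higher (0.74, SE 0.18, adjusted p = 0.0176), where 2.13% of all genes were called higher. Without NC sample 3 the log2 change was 0.82, with a limma adjusted p of 0.05004. ITGA1, which binds collagen IV and fibrillar collagens, was at 4.76 ± 0.384 and 5.03 ± 0.475 FPKM (limma adjusted p = 0.878). ITGA10 and ITGA2 averaged 0.530 and 0.442 FPKM and were not tested.

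Laminin-binding alpha subunits were low as well. ITGA3, which binds laminins holding the alpha3 or alpha5 chain (chromosome 11, 36104482 to 36130659), was at 3.65, 3.80 and 3.92 FPKM with MEOX2 and at 4.23, 4.36 and 4.88 FPKM in NC. The groups did not overlap, and the log2 change of -0.20 (95% interval -0.44 to 0.05) had a limma adjusted p of 0.511. ITGA6, a receptor subunit for most laminins (chromosome 2, 136225512 to 136275286), was at 0.334, 0.328 and 0.230 FPKM with MEOX2 and at 0.657, 0.691 and 0.570 FPKM in NC. Every MEOX2 sample lay below every NC sample, but at 20 to 60 reads per library ITGA6 stayed under the filter. Fitted without a filter its log2(FPKM + 1) difference was -0.34 (SE 0.07, limma adjusted p = 0.104), and the ratio of its summed reads (76 against 166) relative to total reads was 0.461 with an exact 95% binomial interval of 0.346 to 0.608 that covers counting error only. ITGA7, the muscle laminin receptor subunit, averaged 0.142 FPKM. The laminin-binding class summed to 4.08, 4.31 and 4.23 FPKM with MEOX2 and 4.97, 5.30 and 5.62 FPKM in NC, 1.19% ± 0.0452 and 1.59% ± 0.0410 of alpha subunit FPKM.

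ITGAX and ITGAD, alpha subunits of leukocyte integrins, had reads without their usual partner. ITGAX was at 1.76, 1.61 and 1.99 FPKM with MEOX2 and at 1.72, 1.73 and 2.25 FPKM in NC, and ITGAD, its neighbour on chromosome 24, averaged 0.743 FPKM with MEOX2 and 1.10 FPKM in NC, without overlap and under the filter by its mean of all samples. ITGB2, the beta subunit of both, had 0 reads in all 6 libraries, and 3 reads in all of them together would equal 0.0184 FPKM. ITGAX and ITGAD are similar in sequence, so the split of their reads is uncertain. ITGAE was at 3.45 ± 0.216 and 3.58 ± 0.303 FPKM. Its span overlaps GSG2 (3.995 FPKM on average) on the opposite strand, and the counting is not stated to use strand. Overlap of exons was not checked, so some reads of ITGAE and GSG2 may not be told apart. GSG2 had a log2 change of -0.27 and was not called. ITGAM had 1 to 5 reads per library and ITGAL 0 or 1.

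Among beta subunits ITGB1, the common partner of 12 alpha subunits, dominated. It was at 419, 438 and 412 FPKM with MEOX2 and at 434, 390.2 and 448 FPKM in NC, on 14456 to 16775 reads per library. The groups overlapped almost completely, and the log2 change of -0.0025 had a 95% interval of -0.18 to 0.17. ITGB1 made up 85.5% ± 0.988 and 86.7% ± 1.24 of the summed FPKM of the 7 beta subunits found by the rule, which do not include ITGB3. The alpha subunits that pair with it summed to 82.0% ± 3.30 of the ITGB1 level with MEOX2 and 77.2% ± 7.01 in NC, values that overlapped between groups.

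ITGB5, the vitronectin receptor partner of ITGAV (chromosome 1, 187475287 to 187581008), was at 65.9, 59.8 and 65.5 FPKM with MEOX2 and at 56.0, 59.6 and 51.8 FPKM in NC. MEOX2 sample 2 and NC sample 2 nearly met. The log2 change of 0.19 (95% interval 0.0022 to 0.38) was not called (limma adjusted p = 0.362). ITGB8, which pairs with ITGAV and releases TGF-beta from its latent form, was at 6.36, 6.43 and 7.005 FPKM with MEOX2 and at 7.78, 6.82 and 10.1 FPKM in NC. Its log2 change was -0.27 (95% interval -0.58 to 0.04, limma adjusted p = 0.461). None of the 3 tested beta subunits was called by limma or limma voom. By limma 1 had an unadjusted p under 0.05, against 13.4% of all genes. ITGB7 had 0.403, 1.01 and 1.43 FPKM in the MEOX2 samples, a wider spread than the 0.784 to 0.946 FPKM of NC. ITGB4, the beta subunit of hemidesmosomes, and ITGB6, an epithelial subunit, averaged 0.1002 and 0.0477 FPKM.

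**Figure D3:**
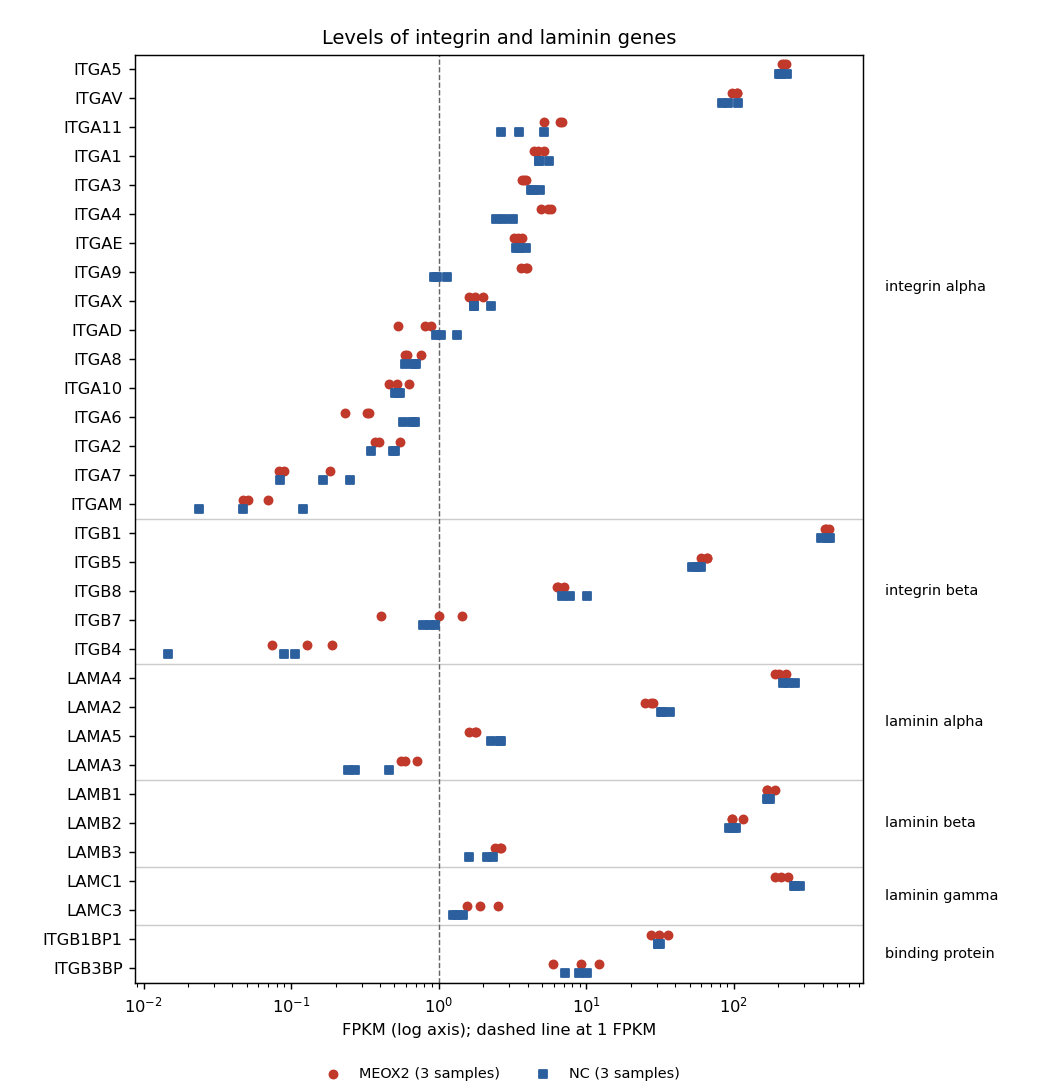
FPKM on a log axis of 32 members with a value above 0 in all 6 samples, grouped by subunit type and ordered by mean level, with 3 MEOX2 samples as red circles and 3 NC samples as blue squares; the dashed line is the filter at 1 FPKM. ITGB1, ITGA5 and ITGAV among integrins and LAMC1, LAMA4, LAMB1 and LAMB2 among laminins lie near or above 100 FPKM, and the red and blue points part most for ITGA9.

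Of 24 known integrin pairs, 22 could be assessed, and in 9 both subunits averaged 1 FPKM or more. RNA of both subunits does not measure the assembled receptor. Ranked by the lower subunit, ITGA5-ITGB1 came first, limited by ITGA5 at 216 FPKM. It was followed by ITGAV-ITGB1 at 97.9 FPKM, ITGAV-ITGB5 at 59.8 FPKM and ITGAV-ITGB8 at 7.41 FPKM. These were the 4 pairs with both subunits at 5 FPKM or more. The other 5 were ITGA11, ITGA1, ITGA3, ITGA4 and ITGA9, each with ITGB1, and in each the alpha subunit was the lower one, at 2.41 to 4.99 FPKM.

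The same 9 pairs passed in each group taken alone. The pair ITGA9-ITGB1 passed in NC by a narrow margin, since ITGA9 averaged 1.01 FPKM there and fell under 1 FPKM in NC samples 1 and 2. With MEOX2 the limiting level of ITGA4-ITGB1 was 5.38 FPKM, above those of ITGA1-ITGB1 (4.76 FPKM) and ITGA3-ITGB1 (3.79 FPKM), whereas in NC it was the lower of the 3 at 2.80 FPKM. No pair with ITGB2, ITGB4 or ITGB6 passed. ITGA4-ITGB7 and ITGAE-ITGB7 were limited by ITGB7 at 0.907 FPKM. They passed when MEOX2 sample 1 was dropped, which raised the count to 11, and not when any other single library was.

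**Figure D4:**
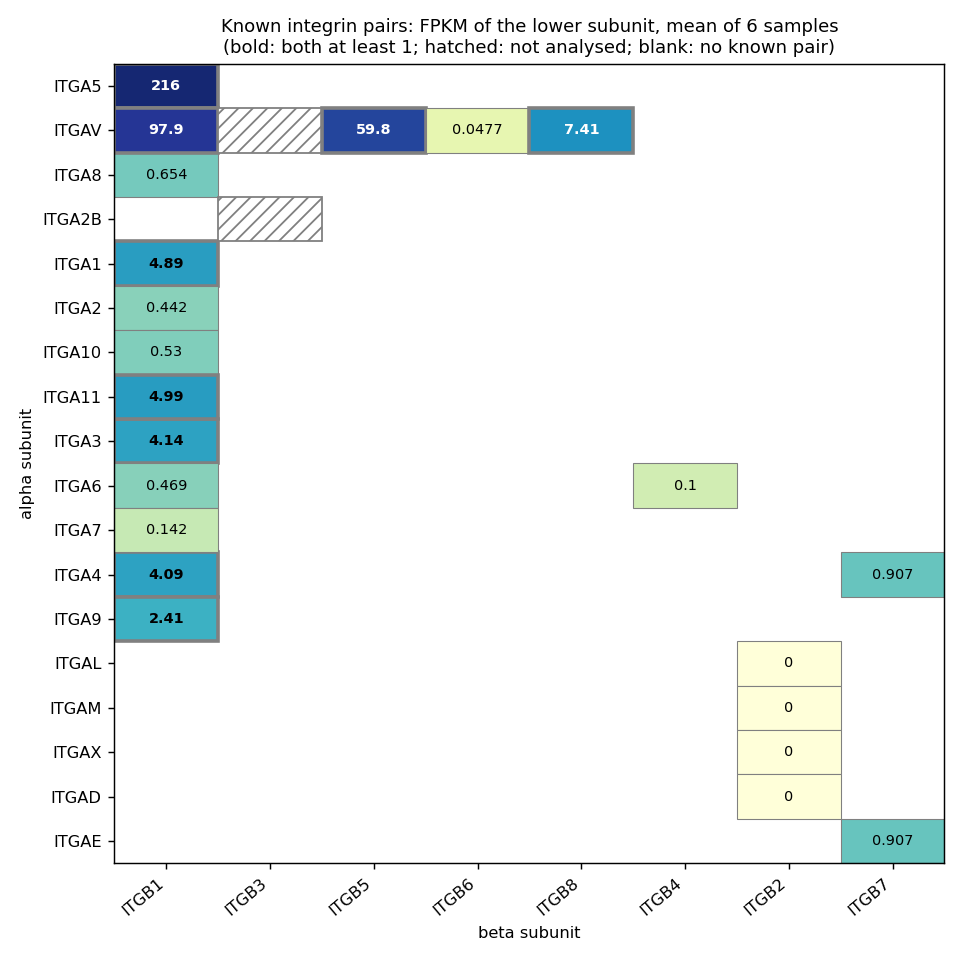
Known integrin pairs by alpha subunit (rows) and beta subunit (columns), with the mean FPKM over 6 samples of the lower subunit printed and shaded on a log scale; bold values have both subunits at 1 FPKM or more, and hatched cells were not analysed. The 9 expressed pairs sit in the ITGB1 column and the ITGAV row, from 216 FPKM for ITGA5-ITGB1 to 2.41 FPKM for ITGA9-ITGB1.

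All 3 tested laminin alpha chains had lower means with MEOX2, but none of the 9 tested laminin chains was called by limma. Limma voom called 3 of the 9 lower (LAMC1, LAMA2 and LAMA5), where 2.04% of all genes were called lower. By limma 4 of the 9 had an unadjusted p under 0.05, against 13.4% of all genes. The groups did not overlap for 6 of the 9 chains, 3 in each direction, against 18.9% of all genes. Of the mature adipocyte markers ADIPOQ, FABP4, PPARG2, PLIN1 and CIDEC were lower as well, and their part in the levels of laminin chains was not tested.

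LAMA4, the alpha chain of laminins in adipose and vascular basement membranes (chromosome 8, 25298969 to 25445606), was the most abundant laminin alpha chain. It was at 225, 190.3 and 203 FPKM with MEOX2 and at 234, 215 and 258 FPKM in NC. MEOX2 sample 1 lay within the NC range, and the log2 change of -0.19 (95% interval -0.41 to 0.02) had a limma adjusted p of 0.429. LAMA4 made up 87.6% ± 0.398 and 86.5% ± 0.595 of laminin alpha chain FPKM in the 2 groups.

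LAMA2, the chain of merosin, known best from muscle and nerve (chromosome 8, 54371404 to 54895696), was at 28.2, 24.8 and 27.6 FPKM with MEOX2 and at 32.3, 32.6 and 36.6 FPKM in NC. All MEOX2 samples lay below all NC samples. The means were 26.9 ± 1.83 and 33.8 ± 2.44 FPKM (SD, n = 3 each), 20.6% apart, with a log2 change of -0.32 (SE 0.09, limma adjusted p = 0.121; limma voom adjusted p = 0.0126).

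LAMA5, a chain of most mature basement membranes (chromosome 13, 54200422 to 54247219), was at 1.79, 1.76 and 1.60 FPKM with MEOX2 and at 2.25, 2.63 and 2.62 FPKM in NC. These groups did not overlap either. The log2(FPKM + 1) difference was -0.36 (SE 0.13, limma adjusted p = 0.257). Limma voom on the recovered reads gave a log2 change of -0.55 (SE 0.12, adjusted p = 0.00753). ADRM1 overlaps the span of LAMA5 on the opposite strand, at 14.8 FPKM with a log2 change of 0.10. Overlap of exons was not checked, so some reads of the 2 genes may not be told apart.

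LAMA3, the alpha chain of epithelial laminins (chromosome 23, 32998185 to 33254634), was under the filter and went the other way. It was at 0.711, 0.554 and 0.588 FPKM with MEOX2 and at 0.458, 0.269 and 0.243 FPKM in NC. The groups did not overlap, the ratio of summed reads (222 against 118) relative to total reads was 1.89 with an exact binomial interval of 1.51 to 2.39, and the log2(FPKM + 1) difference fitted without a filter was 0.29 (SE 0.09, limma adjusted p = 0.261). LAMA1, the embryonic alpha chain, had 0 or 1 read per library.

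None of the 3 tested beta chains was called by limma or limma voom, and 0 had an unadjusted limma p under 0.05. LAMB1 was at 189.8, 168 and 166 FPKM with MEOX2 and at 171, 167 and 175 FPKM in NC, and LAMB2, its counterpart in mature basement membranes, was at 115, 96.7 and 97.2 FPKM and at 97.8, 103 and 92.1 FPKM. Groups overlapped for both, with log2 changes of 0.03 (95% interval -0.14 to 0.20) and 0.08 (-0.13 to 0.28). LAMB3, the beta chain of epithelial laminin, was at 2.63, 2.58 and 2.42 FPKM with MEOX2 and at 2.32, 2.14 and 1.61 FPKM in NC, without overlap. Its log2 change of 0.24 had a 95% interval of -0.09 to 0.56 (limma adjusted p = 0.548). LAMB4 had 0 reads in all libraries.

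LAMC1, the gamma chain of most laminins (ENSOARG00000019180, chromosome 12, 62163057 to 62283591, plus strand), was at 231, 190.0 and 209.9 FPKM with MEOX2 and at 258, 254 and 280.3 FPKM in NC. Every MEOX2 sample lay below every NC sample. The means of 210.1 ± 20.3 and 264 ± 14.0 FPKM (SD, n = 3 each) were 20.5% apart, on 16837 to 24654 reads per library. The log2 change of -0.33 (SE 0.09, 95% interval -0.53 to -0.13) had an adjusted p of 0.106 by limma and 0.00472 by limma voom, and dropping single libraries gave limma adjusted p values from 0.0774 to 0.269.

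LAMC3, a gamma chain of laminins in nerve and reproductive tissue, was at 2.52, 1.55 and 1.91 FPKM with MEOX2 and at 1.24, 1.32 and 1.46 FPKM in NC. Every MEOX2 sample lay above every NC sample, and the log2 change of 0.34 (SE 0.16) was not called (limma adjusted p = 0.426).

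Of 15 known laminin trimers, 10 had all 3 chains at an average of 1 FPKM or more, in both groups. RNA of the chains does not measure the assembled trimer, and trimers share chains. Ranked by the lowest chain, LAMA4-LAMB1-LAMC1 came first, limited by LAMB1 at 173 FPKM, followed by LAMA4-LAMB2-LAMC1 at 100.3 FPKM. LAMA2 limited its trimers with LAMC1 and either LAMB1 or LAMB2 at 30.4 FPKM, and these were the 4 trimers with all chains at 5 FPKM or more. The remaining 6 were limited by LAMA5 (2.11 FPKM) or LAMC3 (1.67 FPKM). The 5 trimers with LAMA1 or LAMA3 did not pass.

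Genes that build on laminin or bind it gave 1 limma call among 22 tested, lower with MEOX2, beside 2.67% called of all genes. Limma voom called 3 of the 22, against 4.17% of all genes. The groups lay apart for 4 higher and 4 lower genes, against 9.6% and 9.33% of all genes. NID2, which links laminin to collagen IV, fell from 540, 546 and 544 FPKM in NC to 405, 406 and 436 FPKM with MEOX2, a log2 change of -0.39 (SE 0.07, limma adjusted p = 0.0208). The groups did not overlap, and of the 6 fits that dropped a library only the one without NC sample 3 kept the call (limma adjusted p = 0.0425), while the others gave 0.0556 to 0.114. Its paralog NID1 was at 132 ± 6.81 and 161 ± 7.03 FPKM (log2 change -0.29, adjusted p 0.0951 by limma and 0.0156 by limma voom). The proteoglycan SDC2 (log2 change 0.29) and COL18A1 (0.41) were higher in every MEOX2 sample and were not called. DAG1, the dystroglycan receptor of laminin, was at 60.6 ± 5.80 and 59.7 ± 4.43 FPKM. The median log2 change of the 22 was -0.01.

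Integrin ligands other than laminins gave 6 limma calls among 24 tested genes, all higher, where 1.51% of all genes were called higher. Limma voom called 11 of the 24, against 4.17% of all genes. The groups lay apart for 10 higher and 3 lower genes, against 9.6% and 9.33% of all genes. The list was chosen with earlier results of these data known, so its counts only describe these genes. TGFBI, a secreted protein that binds several integrins, rose from 820, 832 and 809 FPKM in NC to 1261, 1132 and 1274 FPKM with MEOX2 (log2 change 0.57, limma adjusted p = 0.00697). THBS1, CTGF and NOV, matricellular proteins, rose by 0.63, 0.89 and 0.82, and FBLN5, an elastic fibre protein, and LTBP1, which stores latent TGF-beta, by 0.66 and 0.38. CTGF, THBS1 and TGFBI kept their calls whichever library was dropped, whereas NOV, FBLN5 and LTBP1 kept theirs in 3, 2 and 1 of these 6 fits. NOV lost it without MEOX2 sample 1 or 2 or NC sample 2 (largest limma adjusted p 0.0647), FBLN5 kept it without MEOX2 sample 2 or NC sample 3 (otherwise up to 0.1096), and LTBP1 kept it without NC sample 3 (otherwise up to 0.172). Of the ligands named above for ITGA9 and ITGA4, FN1 and TNC were not called. FN1 was at 2223 ± 287 and 2037 ± 186 FPKM and TNC at 239 ± 26.4 and 221 ± 9.80 FPKM, MEOX2 samples first. The gene values do not single out the fibronectin segment that alpha4 binds. SPP1 and VCAM1 were not analysed here. The median log2 change of the 24 genes was 0.13.

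Adaptors and regulators that join integrin tails to actin and to kinases gave 1 limma call among 49 tested. That share was no larger than the 2.67% of all genes. Limma voom called 3 of the 49, against 4.17% of all genes. MEOX2 and NC values lay fully apart for 8 higher and 1 lower of the 49, against 9.6% and 9.33% of all genes. The log2 change was positive for 33 and negative for 16, where 49.3% of all genes had a positive one. LIMS2, a LIM-domain adaptor of the complex with integrin-linked kinase, rose from 20.8, 20.6 and 20.8 FPKM to 32.1, 28.7 and 29.6 FPKM, a log2 change of 0.52 (SE 0.08, limma adjusted p = 0.0123), a call that was lost without MEOX2 sample 1 or 3 or NC sample 1 (limma adjusted p 0.0526 to 0.0639). The kinase FYN had a log2 change of -0.36 (limma adjusted p = 0.0533), and ACTN1 and PDLIM7, which bind actin filaments and alpha-actinin, had 0.30 and 0.25. The median log2 change of the 49 was 0.07.

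Among the binding proteins found by the rule, ITGB1BP1, which competes for the beta1 tail, averaged 31.4 ± 4.23 FPKM in the MEOX2 samples and 30.9 ± 0.584 FPKM in NC. ITGB3BP, also a centromere protein, was at 5.93, 12.2 and 9.24 FPKM with MEOX2 and at 8.90, 7.18 and 10.04 FPKM in NC. Neither was called, with limma adjusted p values of 0.978 and 0.982. ITGB1BP2, a muscle protein, had 0 to 2 reads per library.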

How the data were processed

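The authors deposited 1 table of FPKM values for 6 samples. Per the submitters' processing notes, the tools were HISAT2 2.0.5 and featureCounts 1.5.0-p3, DESeq2 1.20.0, CASAVA 1.8 and fastp; the sources used here give no roles, settings, strand use, genome build or annotation. The deposited FPKM times gene length gave whole reads, within 0.001 of a read, for 100.0% of the values that were not 0. The implied library size was 0.967 to 1.02 times the reads.

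Log2(FPKM + 1) of rows with a mean of at least 1 FPKM was fitted with limma 3.58.1 in R 4.3.3 (eBayes with trend, no covariates), with Benjamini-Hochberg adjustment over 13121 rows and a threshold of 0.05. Alternatives were other pseudocounts, filters, variance models and scalings, a replicate block, limma voom on the recovered reads and each library left out. Intervals on reads cover counting error only. The members, pairs and lists were chosen with earlier results of these data known. Counts cover all members, 1 of which is not reported here by name or in the figures; the other members are named, and of each pathway list the called genes or up to 4 with the smallest p. Of 211 list symbols, 186 matched by symbol and 2 by a RefSeq synonym (ARS-UI_Ramb_v3.0); the rest were not used here. Python 3.11.15, pandas 2.3.3, scipy 1.17.1 and matplotlib 3.10.9 did the remaining steps.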

Additional observations from a re-analysis of the deposited data

How the results depend on the processing

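With MEOX2 against NC, limma called 350 genes, against 194 without a filter on low genes, 547 by limma voom and 117 to 276 with 1 library left out. Of the members, 2 were called by limma, against 1 (ITGA9) without a filter, 6 by limma voom and 1 to 2 with 1 library left out. With a filter at a mean of 5 FPKM, limma called 314 genes and 0 of 13 tested members, because ITGA9 and ITGA4 fell under that filter. Of the 13 members, 4 had an unadjusted p under 0.05. The shares of all genes at that filter were not computed, so these member counts have no background beside them. ITGA9 and ITGA4 were higher in all fits that tested them. A requirement of 5 FPKM left 4 of 9 integrin pairs and 4 of 10 laminin trimers, a mean of 0.5 FPKM gave 13 pairs and 10 trimers, and 1 FPKM in every sample gave 8 and 10. With 1 library left out, the pairs numbered 9 to 11 and the trimers 10. The log2 change of MEOX2 itself stayed called throughout. Same-numbered samples of the 2 groups did not deviate together (correlations of -0.07, 0.02 and -0.0042), so the numbers were not taken to pair them. With the replicate block limma called 242 genes and the same 2 members. Members under 1 FPKM rest on few reads, and none of them was called in the fit without a filter, where 1 of 37 members was called.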
